A study of Mus musculus with 18 samples.

Results

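Chemokine and chemoattractant receptors are G protein-coupled receptors that guide leukocytes along gradients of chemokines, complement fragments, formylated bacterial peptides, leukotriene B4 and chemerin. On macrophages they set which tissues the cells enter and which signals they follow. Atypical receptors of the same family bind chemokines without classical G protein signalling and clear or carry them. Many of these genes lie in tandem clusters that arose by duplication, so that neighbours share both sequence and surroundings.

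The receptor genes were the protein-coding genes of GENCODE release M21 with a symbol Ccr, Cxcr or Ackr and a number, or a symbol that began with Fpr. Ccrl2, Cx3cr1, Xcr1, C5ar1, C5ar2, C3ar1, Ltb4r1, Ltb4r2 and Cmklr1 were added by name. This gave 37 of 21938 protein-coding genes on the primary chromosomes: 11 CC receptors, 6 CXC receptors, Cx3cr1 and Xcr1, 5 atypical receptors, 7 formyl peptide receptors, and 6 receptors for complement fragments, leukotriene B4 and chemerin. Ccr1l1, a Ccr1-like gene, is counted with the CC receptors.

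Open chromatin was mapped by ATAC-seq, in which the Tn5 transposase cuts exposed DNA, in bone marrow-derived macrophages (BMDMs), differentiated in culture from the marrow of male C57/BL6 mice 6 to 8 weeks old. Every group was kept in DMSO, the vehicle, for 1 h before stimulation. Then 1 group stayed untreated, and 8 groups were given lipopolysaccharide (LPS) or IL-4 at 10 ng/mL for 30 min, 1 h, 2 h or 4 h, with 2 libraries in each of the 9 groups. The 3 deposited lists of reference peaks, extended regions and summits were pooled over all 18 libraries and have no column per library, so that a receptor cannot be followed between stimuli and no value has a replicate error or a test. A summit's score, on a scale that is not stated, ran from 102 to 2781 with a median of 737 over 84660 summits, and serves here to rank positions.

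Marker genes were checked against the label of the cells. All 8 macrophage markers, Csf1r and Spi1 among them, had a reference peak that shared a base with the 1000 bp around an annotated transcript start, called a start site peak below. Of 25 markers of neutrophils, T cells, B cells, dendritic cells, mast cells and basophils, 9 had such a peak (36%). The same held for 56.5% of all protein-coding genes. Among the 25 is Xcr1, which is also one of the receptors and had no such peak. Of the 4 mast cell and basophil markers, 0 had one. The 9 were S100a8, Camp, Ltf, Cd3d, Il7r, Ms4a1, Pax5, Flt3 and Zbtb46, with best scores between 505 and 1632, against 1176 to 2021 for the macrophage markers. The part of such cells in the results was not tested.

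Shown first are sequences at positions on which the results below turn. They are the best scored receptor start sites, and the best scored summits away from start sites in the clusters with the most receptors. Each line holds a summit and the 50 bases to either side of it on GRCm38.p6 (mm10). Start site sequences are on the strand of their gene, for the 6 receptors with the best score at a start site that was not shared with another gene. Capitals mark matches to the motifs described further below; a sequence without capitals had none.
Cmklr1, chr5:113644602-113644702, minus strand, score 1799: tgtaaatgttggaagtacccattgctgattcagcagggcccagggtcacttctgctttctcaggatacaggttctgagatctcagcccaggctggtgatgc
C3ar1, chr6:122856085-122856185, minus strand, score 1773: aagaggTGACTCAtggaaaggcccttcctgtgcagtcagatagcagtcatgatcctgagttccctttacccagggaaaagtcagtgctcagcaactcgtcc
Ccrl2, chr9:111057462-111057562, minus strand, score 1619: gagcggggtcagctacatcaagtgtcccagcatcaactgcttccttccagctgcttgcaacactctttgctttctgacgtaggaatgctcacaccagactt
C5ar1, chr7:16259269-16259369, minus strand, score 1543: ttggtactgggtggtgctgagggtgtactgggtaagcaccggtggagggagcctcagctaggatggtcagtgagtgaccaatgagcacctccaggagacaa
Cx3cr1, chr9:120068264-120068364, minus strand, score 1493: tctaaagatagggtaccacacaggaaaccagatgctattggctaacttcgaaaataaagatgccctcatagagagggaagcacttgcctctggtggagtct
C5ar2, chr7:16244234-16244334, minus strand, score 1431: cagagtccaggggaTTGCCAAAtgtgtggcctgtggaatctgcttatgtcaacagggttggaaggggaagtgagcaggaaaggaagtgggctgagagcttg
Fpr cluster, in an intron of Fpr3, chr17:17900904-17901004, plus strand, score 1734: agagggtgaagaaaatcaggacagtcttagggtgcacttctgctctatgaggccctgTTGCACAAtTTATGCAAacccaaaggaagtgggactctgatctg
Ccr cluster, between Xcr1 and Ccr1, chr9:123924807-123924907, plus strand, score 1864: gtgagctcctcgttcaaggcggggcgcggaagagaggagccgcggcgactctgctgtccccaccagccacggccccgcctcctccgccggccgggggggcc
Ccr cluster, in Ccr9, chr9:123769586-123769686, plus strand, score 1606: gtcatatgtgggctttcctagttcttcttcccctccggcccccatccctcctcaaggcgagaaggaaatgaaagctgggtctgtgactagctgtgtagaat

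The C3ar1 sequence held an AP-1 match and the C5ar2 sequence a C/EBP match. The Fpr sequence held 2 C/EBP matches that began 9 bases apart, on opposite strands. The Ccr sequence between Xcr1 and Ccr1 is rich in CpG and is described with its surroundings below; the best scored distal summit outside that stretch, in Ccr9, was added after its values were seen.

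Accessible start sites were found at 16 of the 37 receptor genes (43.2%). The same held for 56.5% of all protein-coding genes. Leaving out peaks that were also at another coding gene's start site, 13 receptors (35.1%) had one, against 46.6% of all genes. The order depended on the distance: within 2500 bp, 25 receptors (67.6%) had a peak, against 59.9% of all genes. The 9 receptors gained were Cxcr1, Cxcr2, Ccr2, Ccr4, Ccr6, Xcr1, Ackr2, Ltb4r1 and Ltb4r2, whose nearest peak lay between 1035 and 1856 bp from an annotated start.

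Other sets of receptor genes gave different shares. The interleukin receptor genes were taken by symbol alone, as those that begin with Il, a number and r. A start site peak was present at 11 of 12 Toll-like receptor genes (91.7%) and at 21 of 41 interleukin receptor genes (51.2%). The receptors also differed from the genes that act downstream of them: 29 of 31 genes for G protein subunits, receptor kinases, arrestins, RGS proteins and migration effectors had a start site peak (93.5%), without Gnai1 and Rgs16. Among these, Gnai2, the G protein alpha subunit through which most chemokine receptors signal, scored 2258, and the arrestin gene Arrb2 scored 2061. Chemokine ligand genes fell between, with 21 of 37 (56.8%), close to the 56.5% of all protein-coding genes. Ccl3, a ligand of Ccr1, and Ccl2, a ligand of Ccr2, scored 2074 and 1890. Of 8 genes that make or carry other ligands, 6 had a peak, and Hc, the source of C5a, and Rarres2, which encodes chemerin, had none.

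**Figure D1:**
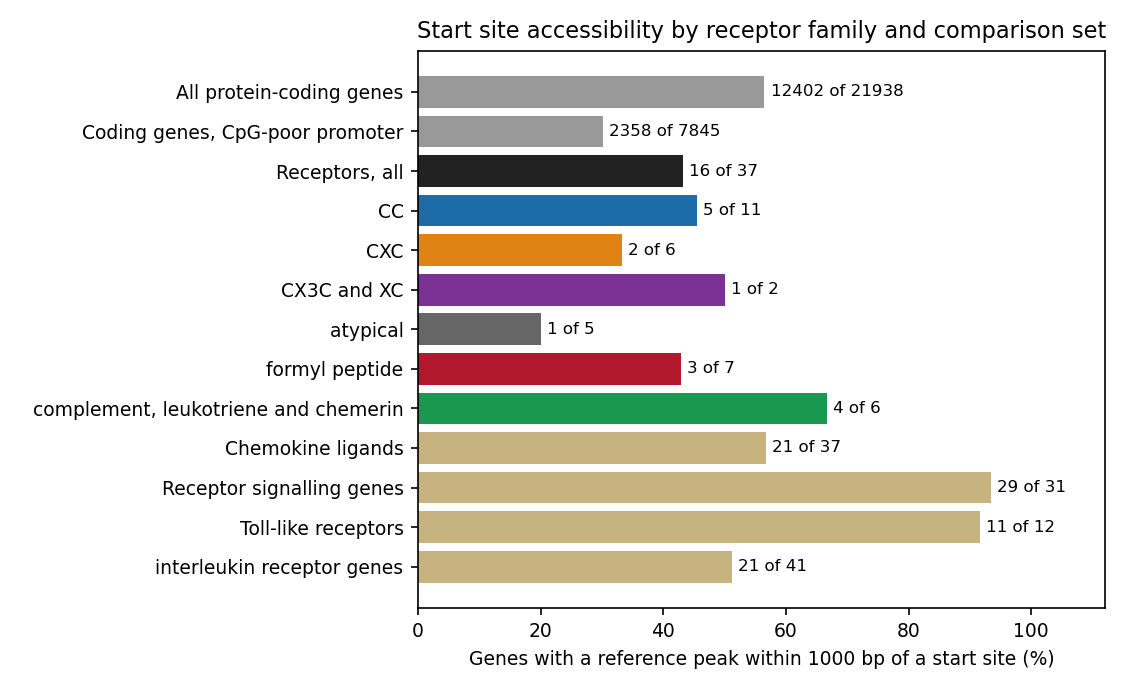
Percent of genes with a start site peak (horizontal axis), for all protein-coding genes, coding genes with a CpG-poor promoter, the receptors and their families, and comparison sets; each bar is labelled with its count. The receptors (16 of 37) lie below all coding genes and above the CpG-poor genes, and complement, leukotriene and chemerin receptors (4 of 6) have the highest share of the receptor families.

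CpG-rich promoters are open in most cell types, and the receptor promoters were poor in CpG. RefSeq promoters (250 bases before to 50 after the start) were matched for 32 of the 37 receptors. Their median ratio of observed to expected CpG was 0.197, against 0.631 over 16522 coding genes. Cxcr4, the receptor for Cxcl12 that holds stem cells and leukocytes in the bone marrow, had a ratio of 0.767 and was the 1 receptor at or above 0.6. Of the 31 receptors below 0.6, 13 had a start site peak (41.9%), against 30.1% of the 7845 coding genes below that ratio. Below this ratio, the share of the receptors was the higher one. The 2 sets share the limit but not the content, with median ratios of 0.192 and 0.238. Fpr2 and Fpr3, counted separately among the 13, have the same peak. This comparison was added after the shares were seen, and the difference was not tested.

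Cmklr1 and C3ar1 had the start site peaks with the best scores. Cmklr1, the receptor for chemerin, had 4 start site peaks. Their scores were 573 at the most upstream start, 878 at a summit 68 bp before a start inside the gene, 1799 in an intron 1049 bp before that same start, in a peak whose edge reaches into the window, and 945 at a summit 691 bp before a further start. C3ar1, the receptor for C3a, had 1 peak of 505 bp with a summit 26 bp inside its first exon and a score of 1773. C5ar1 and C5ar2, the receptors for C5a, scored 1543 (371 bp wide, summit 19 bp past a start) and 1431 (261 bp wide, summit 130 bp before the start). C5ar2 had a second, weaker peak with a score of 211. The leukotriene B4 receptor genes Ltb4r1 and Ltb4r2 completed this family and had no start site peak, with the nearest ones 1208 and 1035 bp away.

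Among the CC receptors, 5 of 11 had a start site peak. Ccr1, a receptor for Ccl3 and Ccl5, scored 1296 at a peak of 317 bp with its summit 30 bp before the start. Ccr3, the eotaxin receptor, scored 634 at a summit 146 bp before the start. Ccr9, the receptor for Ccl25, had 2 peaks with scores of 583 and 384, both with a summit just over 1000 bp before a start that lies far inside the annotated gene. Ccr10 scored 367 at a peak 176 bp wide that was also at the start site of Cntnap1, and cannot be given to either gene.

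The other 6 genes of the CC group had no peak at a start site. Distances to the nearest peak are given here and below from the most upstream start of a gene. Ccr2, the receptor for Ccl2 that takes monocytes out of the bone marrow, had its nearest peak 1414 bp inside the gene from the most upstream start, in an untranslated exon, with a score of 769. The nearest peaks of Ccr4 and Ccr6 were 1666 and 2025 bp away, with scores of 349 and 402. Ccr7, which leads dendritic cells and lymphocytes to lymph nodes, had a peak with a score of 250 in an intron 3936 bp from its start. For Ccr1l1 and Ccr8 the distances were 6599 and 6689 bp.

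The promoters of Ccr1 and Ccr2 illustrate this difference between neighbours of a cluster. Both are RefSeq promoters on GRCm38.p6, 300 bases long, with capitals for the bases inside a reference peak. In Ccr1, 239 bases lay in the peak, and in Ccr2, 0 did.
Ccr1 promoter, chr9:123968643-123968942, minus strand: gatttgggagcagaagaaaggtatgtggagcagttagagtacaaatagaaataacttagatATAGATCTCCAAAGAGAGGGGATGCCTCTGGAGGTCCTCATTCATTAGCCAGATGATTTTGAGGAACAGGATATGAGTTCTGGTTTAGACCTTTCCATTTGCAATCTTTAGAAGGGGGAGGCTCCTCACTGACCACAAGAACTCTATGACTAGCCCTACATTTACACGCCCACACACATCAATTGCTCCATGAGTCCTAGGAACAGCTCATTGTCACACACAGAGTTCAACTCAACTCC
Ccr2 promoter, chr9:124101933-124102232, plus strand: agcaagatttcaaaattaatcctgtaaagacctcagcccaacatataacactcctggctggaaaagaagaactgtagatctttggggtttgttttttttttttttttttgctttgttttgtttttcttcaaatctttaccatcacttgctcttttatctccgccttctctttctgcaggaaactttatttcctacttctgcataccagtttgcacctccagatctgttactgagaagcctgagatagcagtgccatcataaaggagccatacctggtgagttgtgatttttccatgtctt
Both are CpG-poor, with a ratio of observed to expected CpG of 0.0689 and 0.0942, and neither held a match to any of the 9 motifs.

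Of the CXC receptors, Cxcr3 and Cxcr4 had a start site peak. Cxcr4 had 2 peaks with 3 summits, scored 573, 675 and 634, all within 354 bp before the start. Cxcr3, the receptor for Cxcl9 and Cxcl10 and best known from T cells, scored 759 at a summit 230 bp into the gene. Cxcr1 and Cxcr2, receptors of neutrophils for Cxcl1 and Cxcl2 and their relatives, had none, with the nearest peaks at 1460 and 1436 bp. Cxcr6, the receptor for Cxcl16, and Cxcr5, the receptor for Cxcl13, had their nearest peaks at 3254 and 5738 bp. The peak nearest to Cxcr5 had a score of 1606.

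Cx3cr1, the fractalkine receptor of monocytes and resident macrophages, had 2 peaks at its starts with scores of 1493 and 834. Xcr1, a receptor of cross-presenting dendritic cells, had none, with peaks from 1218 bp upstream. Of the atypical receptors, Ccrl2, which binds chemerin and is known to be induced in macrophages, had the widest start site peak of the receptors. It was 1120 bp wide, with a summit of 1619 at the start and another of 979 at 573 bp before it, and a separate peak of 250 lay in an intron. Ackr1, Ackr2, Ackr3 and Ackr4 had no start site peak. From their most upstream starts, the nearest peaks lay 32233, 6163, 18187 and 13447 bp away.

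In the formyl peptide receptor family, 3 of 7 genes had a start site peak. Fpr1, the receptor for bacterial formyl peptides on phagocytes, scored 1176 at a summit 1039 bp before the start, at the edge of the window. Fpr2 and Fpr3 shared a peak of 591 bp with a score of 367, since their annotated starts are 28 bp apart. Fpr-rs4 had its nearest peak 48043 bp away. Fpr-rs3, Fpr-rs6 and Fpr-rs7, known as receptors of the vomeronasal organ, had theirs 315477, 757257 and 826128 bp away, the longest distances of all receptors.

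The best start site scores were spread widely. Over the 16 receptors they ran from 367 to 1799, with a median of 1060.5, against a median of 1456 over all 12402 coding genes with a start site peak. The scores of Ccr3, Ccr9, Ccr10, Cxcr4, Fpr2 and Fpr3 lay below 737, the median of all summits. Without the 3 receptors that have no start site peak of their own (Ccr10, Fpr2 and Fpr3), the median was 1296 against 1381 over all genes.

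**Figure D2:**
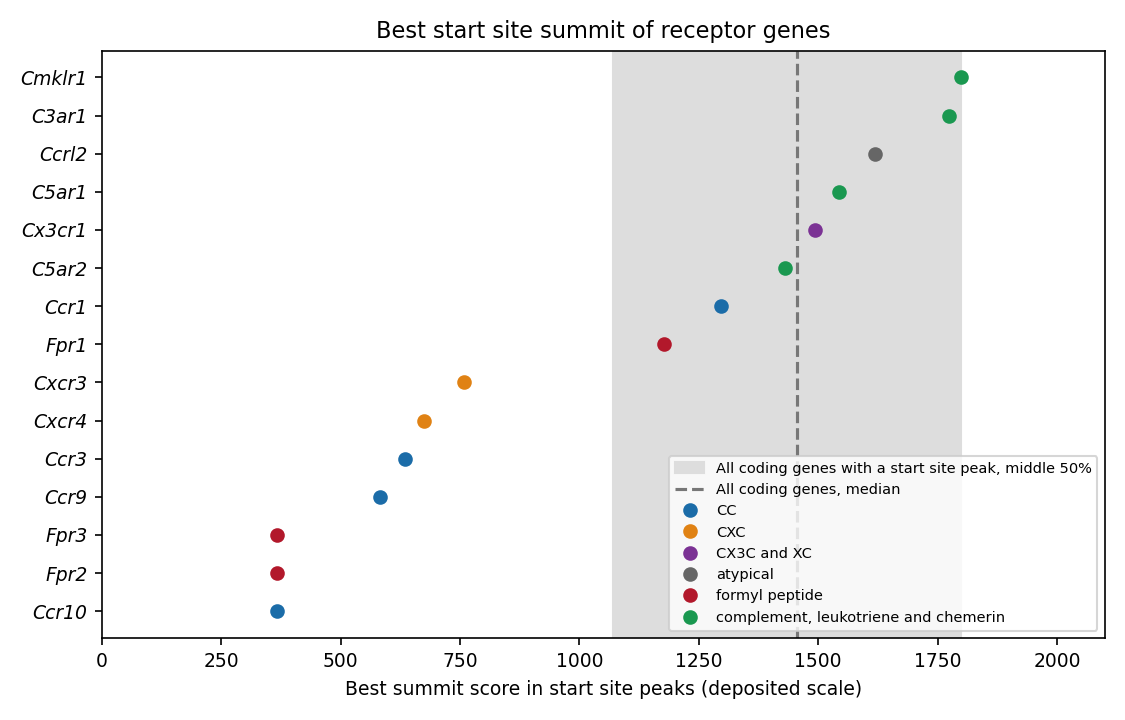
Best summit score at start sites (horizontal axis, deposited scale) of 15 receptors with a start site peak, coloured by family, with the median (dashed line, 1456) and the middle 50% (grey) of all coding genes with such a peak. Cmklr1 is highest at 1799, with a summit 1049 bp from a start, C3ar1 is highest (1773) among summits within 1000 bp, and 7 receptors from Cxcr3 downwards lie below the grey band.

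The surroundings of the receptor genes were richer in regions than those of coding genes in general. An extended region is a reference peak with the bases around it, joined where neighbours meet. A median of 10 extended regions lay within 50 kb of the most upstream start of a receptor gene, against 4 over all coding genes, 7.5 for Toll-like receptor genes and 5 for interleukin receptor genes. The highest counts were 17 at Ccr2, 16 at Fpr1, Fpr2 and Fpr3, and 15 at Cx3cr1 and C5ar2.

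Receptors without a start site peak were not without regions. Their median was 8, against 1 for coding genes without a start site peak, and their median distance to the nearest peak was 5738 bp, against 44554 bp. Interleukin receptor genes without a start site peak were closer to them, with medians of 5 regions and 13413 bp. The Toll-like receptor gene without one had 4 regions and its nearest peak at 5052 bp. Ccr8 and Cxcr6 had 14 regions each, Ccr1l1, Ltb4r1 and Ltb4r2 13 each, and Cxcr5 12. At the other end, Ackr1, Ackr3 and Ackr4 had 2 regions each, Fpr-rs4 had 1, and Fpr-rs3, Fpr-rs6 and Fpr-rs7 had 0, where 21.1% of all coding genes had 0. Cxcr4 had 3 regions in spite of its start site peaks.

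**Figure D3:**
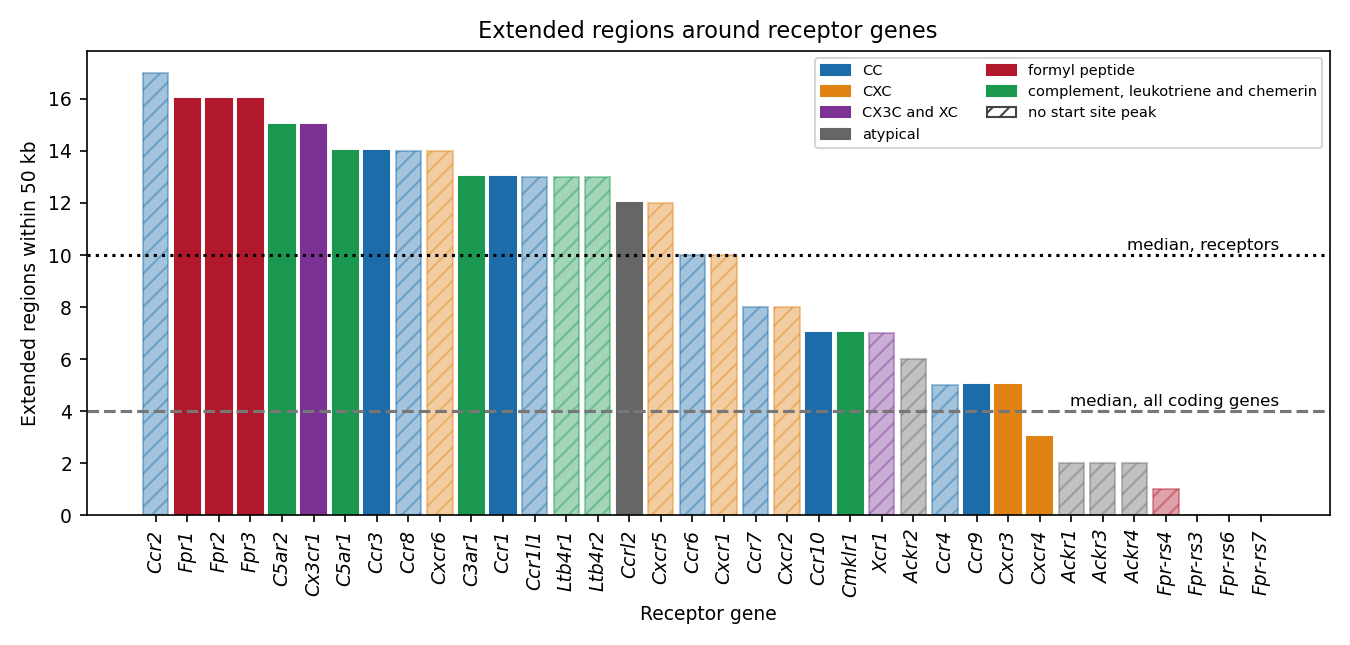
Extended regions within 50 kb of the most upstream start (vertical axis) for 36 of the 37 receptor genes, coloured by family; hatched bars mark genes without a start site peak. Ccr2, without a start site peak, is highest at 17, and 3 Fpr-rs genes are at 0; the dashed line is the median of all coding genes (4) and the dotted line that of the receptors (10).

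Neighbouring receptors share regions, so the counts per gene are not independent. Counted once, 227 extended regions lay within 50 kb of a receptor, and 91 of them were in reach of more than 1. For these regions a best summit was put at a start site where the summit itself lay within 1000 bp of a start. It was at that of a receptor alone in 12, at that of a receptor and another gene in 1, at that of another coding gene in 23, and at no coding gene's start site in 191 (84.1%, against 78.4% of all 59617 regions). The 191 thus include regions that hold a start site peak of Cmklr1, Fpr1, Ccr9, Cxcr4 or Ccr3. In Fpr1 and Ccr9 the summit of that peak lay just over 1000 bp from a start, in Cxcr4 and Ccr3 a higher summit of the region lay outside the window, and in Cmklr1 both were seen. The median best score of the 191 was 769, against 727 for all such regions. The windows held 79.3 regions per Mb, against 40.2 around all coding genes and 22.5 in the genome outside assembly gaps. Toll-like receptor genes were close, with 80.5 per Mb, and interleukin receptor genes had 66.5 per Mb. The 22 receptors in clusters had 97.5 regions per Mb and the 15 outside clusters had 62.7. Inside the receptor genes themselves, counted per gene, 102 summits lay in introns, 21 in untranslated exons and 5 in coding exons, the latter in Cxcr5 and Ccr10. Intronic summits where Fpr2 and Fpr3 overlap are counted for both genes. The introns include those of long annotated transcripts of Cx3cr1 and Ccr9 that run over other genes, so that some of these summits are at the start sites of those genes, such as Csrnp1 and Lztfl1.

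Receptors whose neighbouring most upstream starts were at most 200 kb apart formed 7 clusters. The largest, on chromosome 9, held 8 receptors, among them Ccr9, Cxcr6, Xcr1, Ccr1, Ccr1l1, Ccr3 and Ccr2, together with Lztfl1, Fyco1 and part of Slc6a20a. It carried 52 extended regions with 86 peaks and 89 summits, and 4 of its 8 receptors had a start site peak. The best score, 2034, was at the start site of Fyco1, an autophagy gene that spans Cxcr6 and starts between Cxcr6 and Xcr1. The 76 bases around this summit, the length of a read, were found 2 times in the assembly, at places 30 bp apart in a tandem repeat. A score of 1468 lay between Ccr3 and Ccr2, 31.8 kb downstream of the start of Ccr3, and was higher than the scores at the starts of Ccr1 (1296) and Ccr3 (634).

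Within the 20 kb upstream of Ccr2 there was 1 summit, with a score of 411. A group of 4 summits 28 to 34 kb upstream of Ccr2 had scores from 505 to 1002.

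**Figure D4:**
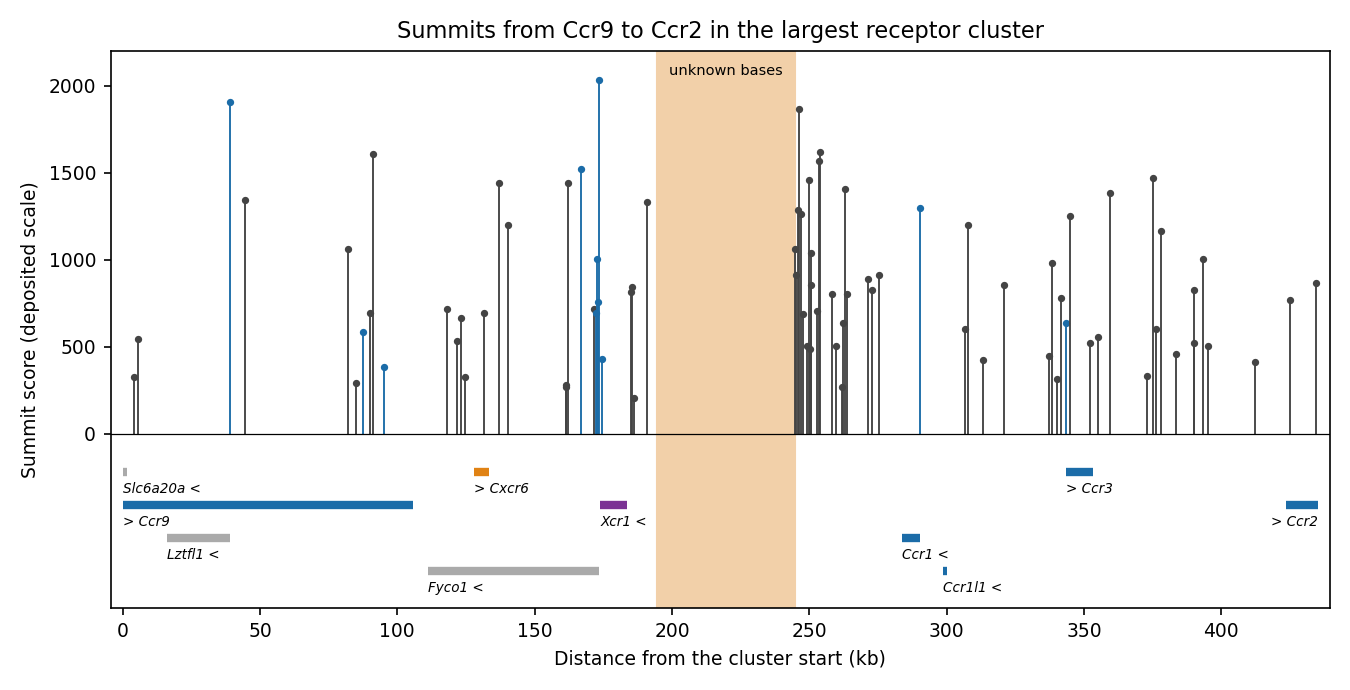
Summits from Ccr9 to Ccr2 in the largest cluster by their distance from the cluster start (horizontal axis, kb) and score (vertical axis, deposited scale). Blue stems are in peaks within 1000 bp of a coding gene's start, dark stems are not; coloured bars are receptors, grey bars other genes, with > or < for the strand, and the shaded block is the run of unknown bases. The 20 summits just right of the block include the score of 1864, and no stem stands inside it.

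The densest part of this cluster borders unknown sequence. Between Xcr1 and Ccr1 the assembly has a run of 50.0 kb of unknown bases, which makes up most of the longest stretch without a peak (53.5 kb). The first of 20 closely spaced summits lay 231 bp from its end. Together they spanned 18.9 kb, between 26.5 and 45.4 kb downstream of the start of Ccr1. Of windows of 20 kb that begin at a summit anywhere in the genome, 99.5% held fewer. Their median score was 883.5 and their highest 1864. No gene of any type is annotated there. The stretch had 16.4 CpG per kb, against 5.93 in the rest of the cluster.

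Of these 20 summits, 3 (15%) had a match of at least 90% identity over at least 76 bases elsewhere in the primary chromosomes, on X, Y or 7, against 11 of 363 other summits around receptors (3.03%). Matches that overlap a summit's own bases, as in the repeat at the Fyco1 start, were left out. How far reads from sequence that is missing from the assembly were placed there was not tested. Without the stretch, which holds 4 extended regions, the cluster had 48 regions or 120.1 per Mb of known bases, in place of 124.3, and Ccr1 and Ccr1l1 each had 9 regions within 50 kb in place of 13. The median over all receptors was then 9 in place of 10.

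Cx3cr1 and Ccr8 formed a second cluster on chromosome 9, chr9:119901616-120094906, with 25 regions and 39 peaks in 193 kb. A long annotated transcript of Cx3cr1 runs across Xirp1, Csrnp1, Ttc21a, Gorasp1 and part of Wdr48. Downstream of the start sites, in introns or an untranslated exon of Cx3cr1 before Xirp1, 9 summits stood between 3.89 and 41.9 kb from the most upstream start. The scores of 5 of them, 1864, 1696, 1505, 1812 and 1632 at 11, 14.9, 20.3, 26.6 and 32.3 kb, were higher than that of the best start site summit of Cx3cr1 (1493). The other 4 scored 430, 476, 603 and 467. No peak was listed in the last 21.5 kb of the cluster, where Ccr8, a receptor of regulatory T cells, lies, and the peak nearest to its start was 6689 bp downstream.

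Both C5ar2 and C5ar1 had a start site peak. Their cluster, chr7:16234585-16259540, held 5 regions with 8 peaks in 25.0 kb. The best score, 1955, was in an intron of C5ar1, 5072 bp downstream of its most upstream start, and exceeded the start site scores of both genes. A further intronic summit of C5ar1 scored 1406.

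The first formyl peptide receptor cluster, chr17:17876471-18022704, held Fpr1, Fpr2, Fpr3 and Fpr-rs4 with 11 regions and 15 peaks in 146 kb. Of the 15 peaks, 14 lay in the first 39 kb. Away from start sites, the 3 highest scores, 1480 (an intron of Fpr1), 1734 and 1505 (introns of the long annotated form of Fpr3), were higher than the start site score of Fpr1, 1176. No peak was listed in the following 58.3 kb, and 1 peak with a score of 476 lay between Fpr3 and Fpr-rs4. Matches of at least 90% identity elsewhere were found for 4 of the 15 summits, those scored 1480, 1505, 716 and 182, and not for that scored 1734. The second formyl peptide cluster, Fpr-rs7 and Fpr-rs6, had 0 peaks in 69.9 kb. Joining receptors up to 500 kb apart added Fpr-rs3 and 8 vomeronasal receptor genes and gave 0 peaks in 511.7 kb.

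The 2 remaining pairs had no start site peak. Cxcr2 and Cxcr1, chr1:74153989-74194631, had 3 peaks in 40.6 kb. The best, with a score of 1002, was in an intron of Cxcr2, and the 27.2 kb up to and including Cxcr1 had none. Ltb4r2 and Ltb4r1, chr14:55761428-55768494, have their starts 4534 bp apart and had 3 peaks with scores of 613, 644 and 524, all over untranslated exons of Ltb4r2 and upstream of Ltb4r1.

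**Figure D5:**
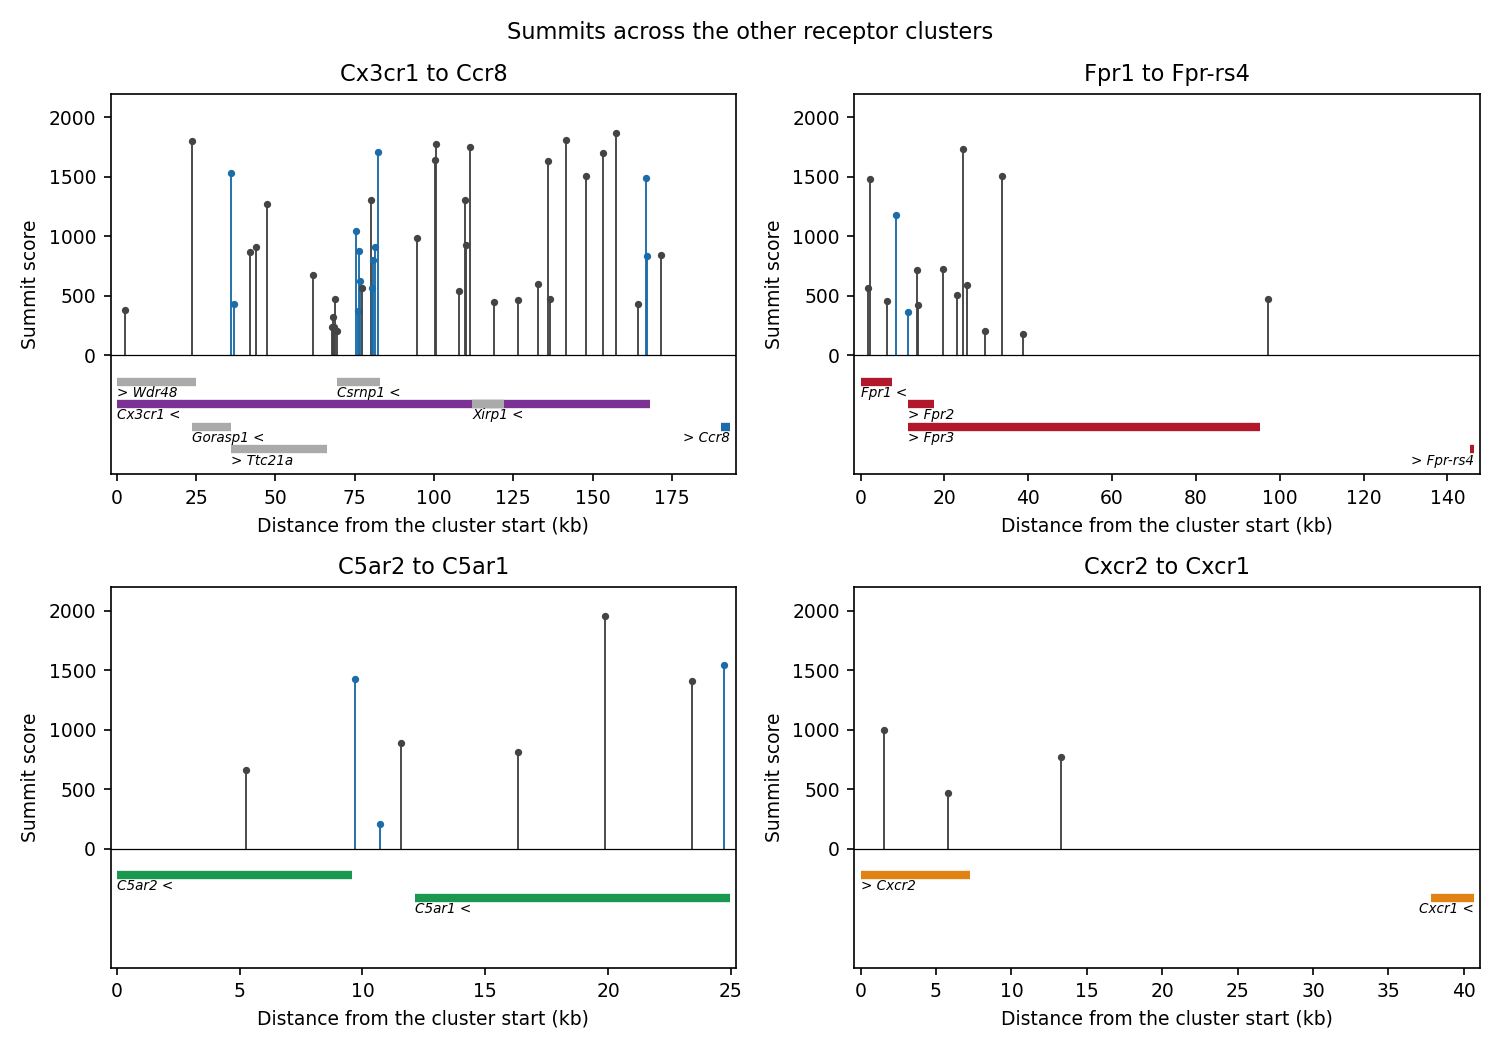
Summits of 4 other receptor clusters by distance from the cluster start (horizontal axis, kb, a scale per panel) and score (vertical axis, deposited scale), drawn as in the map from Ccr9 to Ccr2. The highest stems (1864, 1734, 1955 and 1002) are dark, and thus away from start sites, in each of the 4 panels.

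Consensus motifs of 9 factors were looked for on either strand, in the 100 bp to each side of a region's best summit. Spelled in letters, they were GAGGAAGT for PU.1 and other ETS factors, TGACTCA or TGAGTCA for AP-1, TTGCNNAA for C/EBP, AACCACA for RUNX and GGGGCGGG for SP and KLF factors. NF-kB, IRF, STAT6 and CTCF were searched by their usual consensus. Around receptors, AP-1 was matched in 45 of 227 regions (19.8%, against 17.3% of all regions), C/EBP in 35 (15.4%, against 11.7%) and PU.1/ETS in 26 (11.5%, against 10.1%).

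For the other motifs, the shares were 8.37% against 8.30% for RUNX, 4.85% against 5.34% for NF-kB, 4.85% against 6.91% for STAT6, 3.96% against 6.75% for SP/KLF, 2.64% against 3.73% for IRF and 2.64% against 3.63% for CTCF. The order turned within 50 bp of summits for AP-1 (12.3% against 12.7%) and RUNX (3.52% against 5.00%), within 200 bp for NF-kB (8.81% against 7.71%), and away from start sites for RUNX (8.90% against 9.61%). The regions of a cluster are not independent of each other. At the 15 distinct best start site summits of receptors, SP/KLF was matched in 0, against 27.9% of those of all coding genes. This motif holds a CpG, and these coding genes were not matched to the receptors in CpG content. PU.1/ETS, IRF and CTCF were also matched in 0, against 4.08%, 2.25% and 1.40%. STAT6 and RUNX were matched in 1 each, against 3.31% and 2.92%. NF-kB was matched in 3 (Ccr3, Ccrl2 and Fpr1), C/EBP in 3 (C5ar2, Cmklr1 and Fpr1) and AP-1 in 2 (C3ar1 and Ccr3), against 4.23%, 5.92% and 4.90%. The summits of Cmklr1 and Fpr1 lay 1049 and 1039 bp from a start. In the RefSeq promoters of 32 receptors the order turned for C/EBP, with 2 matched (6.25%) against 11.5% of coding genes. There NF-kB was matched in 4 (12.5%, against 5.73%) and AP-1 in 5 (15.6%, against 5.40%). A match describes the letters in a window and does not show that a factor bound there.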

How the data were processed

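The authors made the ATAC-seq libraries of BMDMs and sequenced 76 bases from a single end. Per the study's methods and the submitters' processing notes, they trimmed reads (BBDuk, Trimmomatic 0.39), placed them on mm10 with ShortStack, filtered them with SAMtools 1.9 and called peaks with MACS2 2.2.6 without local background and with duplicates kept. The reference set held only peaks past a strict q-value limit that overlapped between replicates, so weaker or less repeatable peaks are not listed. Duplicates can raise a peak's height, and no shift towards the Tn5 cut is named, so a summit can lie beside the cut position. The 3 deposited lists hold positions and, for summits, the authors' score, whose scale is not stated; other columns are names. The lists were pooled by the authors, so depth and precision per library are unknown, and 0 columns belonged to other samples.

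Positions are counted from 1. Genes came from GENCODE M21, sequence and promoters from GRCm38.p6 (RefSeq). A start site peak shares a base with the 1000 bp to either side of any annotated transcript start. Similar sequence was found with BLAST+ 2.17.0, other values with Python 3.11.15 and NumPy 2.4.6. The measures were checked on simulated lists. Receptors are named with their start site score or the distance to their nearest peak; 1 receptor that counts towards the 37 is not reported here by itself. The receptors, gene lists and motifs were chosen with earlier results of these data known. Alternatives were other windows, start sites, score limits, cluster gaps and motif windows. Groups, stimuli and times were not compared.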

Additional observations from a re-analysis of the deposited data

How the results depend on the processing

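The share of receptors with a start site peak was 67.6% within 2500 bp and 27% with peaks at or above the median score; over 9 alternatives it lay below the share of all genes in 8, the exception being 2500 bp. In an alternative chosen after seeing the data, receptors with a CpG-poor promoter (41.9%) lay above the coding genes with one (30.1%). The median score stayed below that of all genes in 4 of 4 alternatives (818.5 to 1296), and the median number of regions above it in 5 of 5, at 4 within 20000 bp and 18 within 100000 bp. Clusters held 98 regions, and 77 with a gap of 100000 bp. Within 50 bp of summits, the motif share, against that of all regions, was 7.93% against 7.17% for PU.1/ETS, 12.3% against 12.7% for AP-1, 2.2% against 3.20% for NF-kB, 8.81% against 6.68% for C/EBP and 3.52% against 5.00% for RUNX. Within 200 bp it was 8.81% against 7.71% for NF-kB, 6.61% against 6.67% for IRF, 22.0% against 18.8% for C/EBP and 15.4% against 12.5% for RUNX. Away from start sites it was 1.05% against 1.65% for SP/KLF. The order of receptors and all regions thus turned for AP-1 and RUNX within 50 bp, for NF-kB within 200 bp and for RUNX away from start sites (8.90% against 9.61%). A wider window holds more letters. No paired analysis was possible because the lists have no column per library. Depth per library is unknown, and dense peaks joined into 1 extended region lower the counts of regions.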
